A study of Mus musculus with 6 samples.

Results

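The nucleolar ribosome biogenesis genes are 35 genes whose products transcribe ribosomal RNA, modify and cut its precursor, and fold it into ribosomal subunits in the nucleolus. They were chosen by name, as nucleolar assembly factors and subunits of RNA polymerase I, and by an array probe set annotated with that symbol alone. All 35 had such a probe set, 72 probe sets in all, among the 18193 genes with probe sets of 1 symbol. The cells were V720, a breast cancer line of the mouse with mammary epithelium as its labelled tissue, grown in medium with fetal calf serum. Treated cells received 1 µM PD0332991 (palbociclib), an inhibitor of the cell-cycle kinases CDK4 and CDK6, for 24 h, and the control cells received its vehicle for 24 h. Each group had 3 samples, which the design text calls biological triplicates, and each sample had its own Affymetrix array of total RNA.

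Ribosome production is the main biosynthetic cost of a growing cell, and the transcription factor MYC is a known activator of many of its genes. RNA polymerase I copies the ribosomal DNA into a long precursor. Small nucleolar RNAs, bound to box C/D or box H/ACA proteins, guide its methylation and pseudouridylation, and separate sets of assembly factors then build the small and the large subunit. Cell growth and the cell cycle are linked in proliferating cells, and the comparison asked how transcripts of this machinery differed after CDK4 and CDK6 had been inhibited.

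The array medians lay between 69.8 and 71.2 on the PD0332991 arrays and between 71.4 and 72.9 on the vehicle arrays, in linear intensity. Correlations across genes were 0.9969 to 0.9973 within groups and 0.9919 to 0.9927 between groups. The epithelial markers Krt8, Krt18, Epcam and Cdh1 were bright in both groups, with Krt8 at 10596 on PD0332991 arrays and 9981 on vehicle arrays, whereas Krt19 was at 1.42 on PD0332991 arrays and 1.0 on vehicle arrays. Of 15 markers of leukocytes, fibroblasts, endothelium and adipocytes, 2 were higher and 1 lower with PD0332991, and 13 had mean intensities under 50 in both groups. Their summed intensity was 655.2 to 710.5 on PD0332991 arrays and 625.8 to 651.1 on vehicle arrays. The lower marker was the fibroblast gene Pdgfra, with 117.0 on PD0332991 arrays and 174.5 on vehicle arrays (log2 fold change -0.52, limma adjusted p = 0.00380), and the summed intensity of 5 fibroblast markers was 178.0 to 200.6 on PD0332991 arrays and 234.8 to 267.2 on vehicle arrays. The 2 higher markers were the leukocyte genes Cd68 (307.7 on PD0332991 arrays and 230.1 on vehicle arrays) and Ptprc (18.2 on PD0332991 arrays and 11.6 on vehicle arrays). The sum of 4 leukocyte markers was 314.4 to 348.5 on PD0332991 arrays and 235.8 to 268.6 on vehicle arrays. The part of these markers in the results below was not tested.

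Transcripts of most members were slightly lower with PD0332991. A call here is a limma adjusted p under 0.05 over all 18193 genes, and 9 of the 35 members were called lower (25.7%) while none was called higher. Without adjustment, limma p was under 0.05 for 15 lower and 2 higher members. The share of all genes at that unadjusted threshold was not computed, so this count and those given below have no background share. Over all genes, 11.2% were called lower and 9.81% higher. Among the 8698 genes at least as bright as the dimmest member, the shares were 19.2% and 15.6%. By role, all 3 box C/D and 2 of 4 box H/ACA members were called lower. In each other role the share called lower was 0% to 18.2%, below the 19.2% of bright genes. The log2 fold change, PD0332991 over vehicle, was negative in 29 of 35 members (82.9%), against 51.2% of those bright genes and 48.7% of all genes, and in 26 members after quantile normalization. The members' median was -0.11, with single values from -0.32 to 0.13, and the median of all genes was 0.00. The changes were small, since the deepest fall was 1.24-fold. Because RNA from whole cultures was measured, fewer cells with a transcript and less of it per cell cannot be told apart.

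The mean of the 35 members on the log2 scale was 10.04, 10.09 and 10.06 on the PD0332991 arrays, against 10.15, 10.17 and 10.18 on the vehicle arrays. All 3 PD0332991 arrays lay below all 3 vehicle arrays. Intensities of the groups did not overlap in 23 members (65.7%), 21 of them lower and 2 higher. The share was 38.9% over all genes, 19.6% lower and 19.3% higher, and it was 61% over the bright genes, 32.2% lower and 28.8% higher. Regardless of direction the members' share was thus close to that of bright genes, while most of the members' cases were lower.

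**Figure D1:**
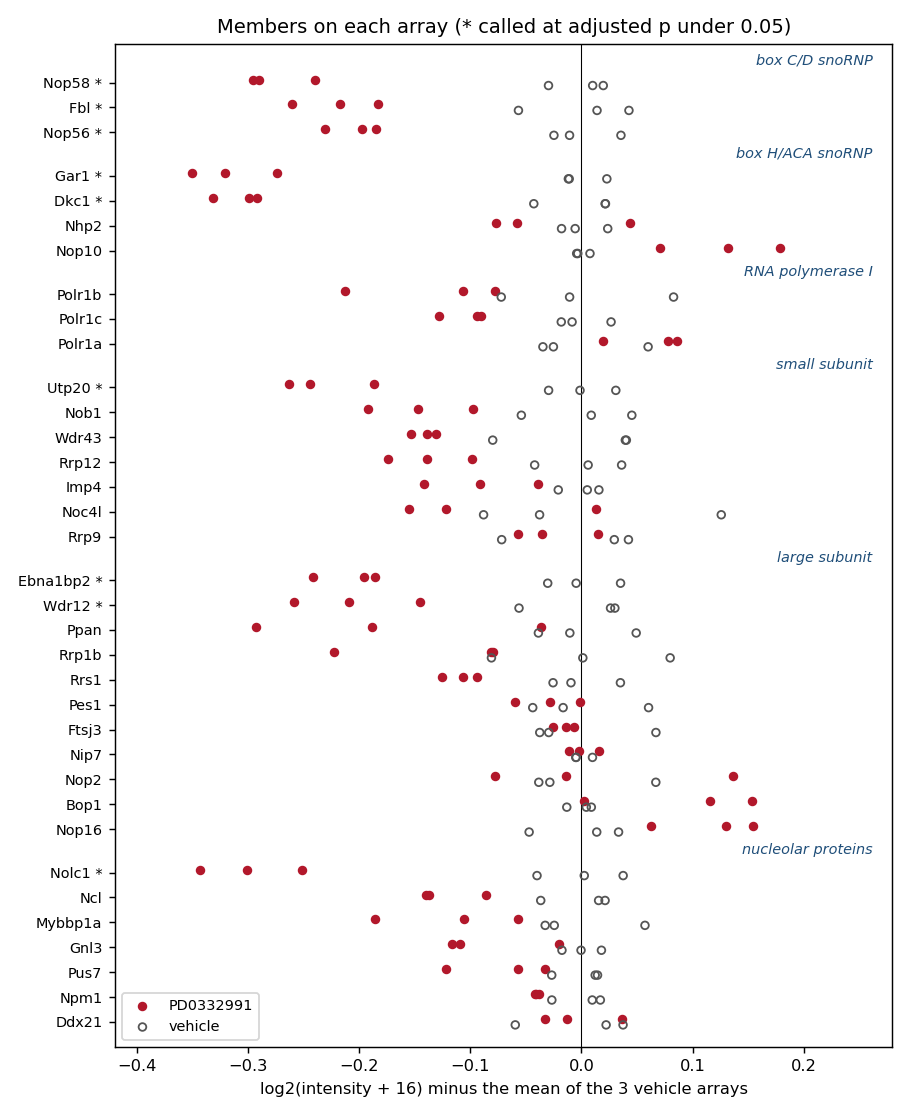
Log2(intensity + 16) of each of the 35 members on each array, as the difference from the mean of the 3 vehicle arrays (horizontal axis), for PD0332991 (filled red) and vehicle (open grey) arrays, grouped by role. Members called at an adjusted p under 0.05 carry an asterisk, and the red points of all 9 lie left of the open ones.

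Transcripts for the box C/D proteins, which carry the guides for ribose methylation, all fell. Nop58, a core scaffold of these particles, had intensities of 3467, 3604 and 3479 on PD0332991 arrays, against 4172, 4318 and 4289 on vehicle arrays. Every PD0332991 array was below every vehicle array, a fall of 1.21-fold (log2 fold change -0.28, SE 0.04, limma adjusted p = 0.00495). Its partner Nop56 had 2171, 2242 and 2222 on PD0332991 arrays, against 2507, 2615 and 2532 on vehicle arrays (log2 fold change -0.20, SE 0.04, limma adjusted p = 0.0133). Fbl, fibrillarin, the methyltransferase itself, had 2839, 2927 and 2997 on PD0332991 arrays, against 3273, 3439 and 3508 on vehicle arrays. Neither gene's groups overlapped. The fall of Fbl was 1.17-fold (log2 fold change -0.22, SE 0.04, limma adjusted p = 0.0191). Its call was lost without PD0332991 replicate 1 (adjusted p = 0.0644) or 2 (0.0614) and without vehicle replicate 2 (0.0630) or 3 (0.0638), with log2 fold changes of -0.22 to -0.20.

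In the box H/ACA particle, which converts uridines of ribosomal RNA to pseudouridine and shares its proteins with telomerase, 2 of 4 core genes fell. Gar1 had 1116, 1140 and 1178 on PD0332991 arrays, against 1416, 1416 and 1451 on vehicle arrays, the largest fall among the members at 1.24-fold (log2 fold change -0.32, SE 0.04, limma adjusted p = 0.00329). Dkc1, dyskerin, the pseudouridine synthase, had 1240, 1275 and 1269 on PD0332991 arrays, against 1519, 1589 and 1589 on vehicle arrays (log2 fold change -0.31, SE 0.04, limma adjusted p = 0.00351). In both genes the arrays of the groups stayed apart. The other 2 core genes were not called: Nhp2 had a log2 fold change of -0.03 (95% interval -0.14 to 0.08) and Nop10 of 0.13 (95% interval 0.03 to 0.23, limma adjusted p = 0.0817). Nop10 had 3529, 3646 and 3381 on PD0332991 arrays and 3212, 3210 and 3237 on vehicle arrays, so that in this probe set the PD0332991 arrays were the higher ones. The dimmer Nop10 probe set moved by 0.04 in log2 and was not called when tested on its own. It averaged 2455 on PD0332991 arrays and 2386 on vehicle arrays, and there the groups overlapped.

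Because these 4 proteins sit in the same particle, the change of one gene was also set against that of another on each array. Each gene was read from its brightest probe set. For Nop10 that was the probe set that rose more, by 0.13 against 0.04 in the dimmer one. Ratios with the dimmer Nop10 probe set were not computed. The Nop10 probe set used and the single Gar1 probe set are of shared types, which can match several transcripts. Shifting all log2 values of an array by the same amount leaves such a ratio unchanged, but quantile normalization can alter it. The log2 ratio of Gar1 to Nop10 changed by -0.44 (-1.61 ± 0.09 on PD0332991 arrays and -1.16 ± 0.01 on vehicle arrays, SD, n = 3 each). Its groups did not overlap, and the exact two-sided permutation test gave p = 0.1, the smallest that 3 arrays against 3 allow. The ratio of Gar1 to Dkc1 changed by -0.01. Over 15 such pairs in 4 complexes, chosen after values were seen, every p of 0.1 became 0.136 after Benjamini-Hochberg adjustment. Groups did not overlap in 5 of 6 pairs of the H/ACA particle and 1 of 3 of the C/D particle. They also did not in 3 of 3 of the PeBoW complex and 2 of 3 of RNA polymerase I. The pairs of a complex reuse the same few genes, so these counts are not independent readings. The share over other gene pairs was not computed.

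**Figure D2:**
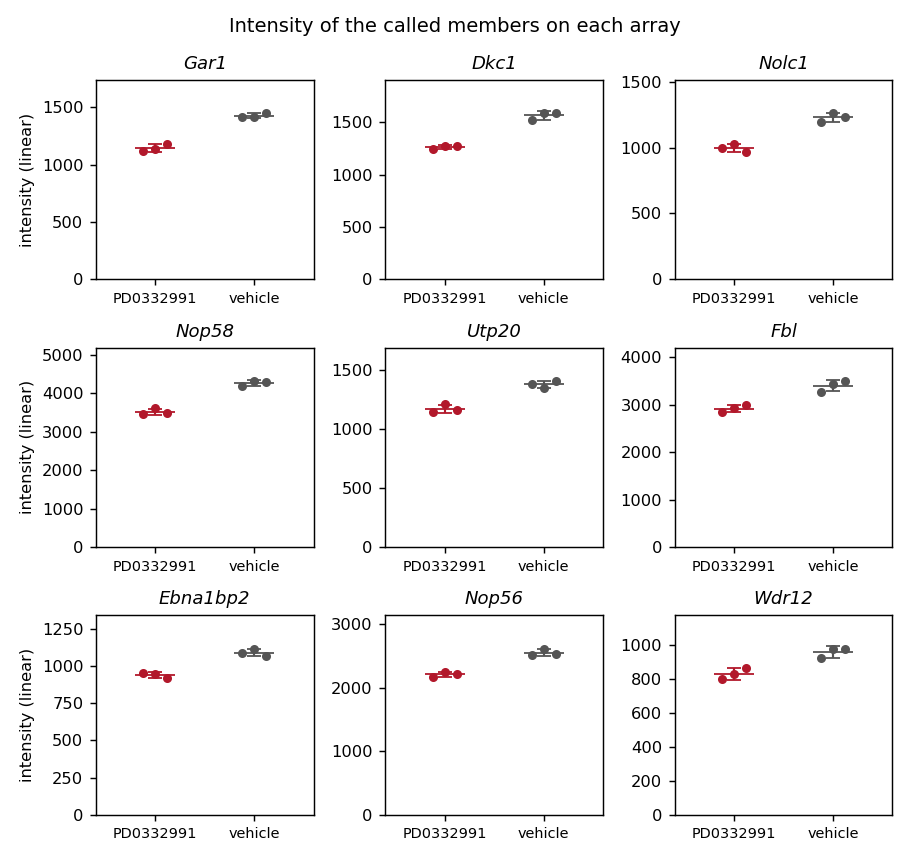
Linear intensity (vertical axes, from 0) of the 9 called members on the 3 PD0332991 arrays (red, left) and the 3 vehicle arrays (grey, right), with points for arrays and bars for the mean ± SD. In each panel the PD0332991 points lie below the vehicle points, by 1.15-fold (Wdr12) to 1.24-fold (Gar1).

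RNA polymerase I itself was not called in any of its 3 members (limma; without adjustment 1 had p under 0.05, lower). Polr1c, a subunit that RNA polymerase III also uses, had the smallest p, with 836.6, 859.2 and 857.0 on PD0332991 arrays and 904.0, 910.2 and 933.0 on vehicle arrays. Its groups did not overlap, yet the adjusted p was 0.0889 (log2 fold change -0.10, SE 0.03). Polr1b, the second-largest subunit, had a log2 fold change of -0.13 (95% interval -0.28 to 0.01), and Polr1a, the largest, of 0.06 (-0.05 to 0.17). The 5 probe sets of Polr1a ran from -0.17 to 0.14, and none was called on its own.

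Among the 7 members that build the small subunit, all had negative log2 fold changes in their brightest probe sets, from -0.23 to -0.03, and 1 was called. Utp20, a very large scaffold protein of the small-subunit processome, had 1146, 1209 and 1161 on PD0332991 arrays, against 1378, 1351 and 1409 on vehicle arrays. The groups were apart, by 1.17-fold (log2 fold change -0.23, SE 0.04, limma adjusted p = 0.0114). Nob1, the endonuclease of the last cut of the small-subunit RNA, had a log2 fold change of -0.15 (adjusted p = 0.0755). Wdr43, a processome protein, had -0.14 (adjusted p = 0.0846), as had Rrp12, known in yeast as a factor of subunit export (adjusted p = 0.0650). In all 3 genes the groups did not overlap. Imp4, of the processome, had a value of -0.09, Noc4l, a maturation factor, -0.09, and Rrp9, a protein of the U3 particle, -0.03. Dimmer probe sets of Imp4 had 0.18 (limma adjusted p = 0.0622) and -0.19 (0.168), and neither was called on its own. The brightest probe set of Noc4l was not called (adjusted p = 0.485), but its other 3 probe sets were called lower when each was tested on its own, with log2 fold changes of -0.23, -0.27 and -0.29.

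The large-subunit members were the most mixed, with 7 negative and 4 positive log2 fold changes among 11 and 2 called lower (after quantile normalization Pes1 and Ftsj3 were positive too). Ebna1bp2, an assembly factor known from yeast as Ebp2, had 955.0, 948.2 and 917.8 on PD0332991 arrays, against 1085, 1116 and 1065 on vehicle arrays (log2 fold change -0.21, SE 0.04, limma adjusted p = 0.0142). Averaged over its 3 probe sets, of which 2 are dim, the value was 0.03 and not called. Wdr12 had 800.5, 829.0 and 867.5 on PD0332991 arrays, against 923.7, 978.9 and 981.6 on vehicle arrays (log2 fold change -0.20, SE 0.05, limma adjusted p = 0.0315). Both genes' groups were apart. The call of Wdr12 was lost without PD0332991 replicate 1 (adjusted p = 0.0905) or 2 (0.0911) and without vehicle replicate 2 (0.0940) or 3 (0.0977), with log2 fold changes of -0.20 to -0.18, and averaged over its probe sets the value was -0.06.

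Wdr12 acts with Pes1 and Bop1 in the PeBoW complex, which is needed to process the large-subunit RNA. Pes1 had a log2 fold change of -0.03 (95% interval -0.13 to 0.08) and Bop1 of 0.09 (-0.03 to 0.21). The log2 ratio of Wdr12 to Bop1 changed by -0.29, from groups that did not overlap (exact permutation p = 0.1, 0.136 over the 15 pairs). Rrs1, which helps to load the smallest ribosomal RNA, had a value of -0.11, Ppan, a factor first known from the fly gene peter pan, -0.17, and Rrp1b, a nucleolar cofactor, -0.13. Nop16, which yeast uses in large-subunit assembly, had 0.12. The RNA methyltransferase genes Nop2 (0.02) and Ftsj3 (-0.02) and the assembly factor gene Nip7 (0.00, 95% interval -0.08 to 0.08) stayed near 0, and none of these genes was called. The other probe set of Pes1 had 0.18 and was not called (limma adjusted p = 0.0689). Of the 3 probe sets of Rrp1b, 1 was called lower on its own (-0.38, limma adjusted p = 0.00427), and averaged over them the gene was called lower too.

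Of the 7 members that encode nucleolar proteins of broader role, 1 was called and all had negative log2 fold changes, although Ddx21 had 0.02 after quantile normalization. Nolc1, a phosphoprotein that chaperones snoRNPs, had 995.0, 1031 and 965.9 on PD0332991 arrays, against 1196, 1263 and 1232 on vehicle arrays. With groups well apart it was 1.23-fold lower (log2 fold change -0.30, SE 0.04, limma adjusted p = 0.00630). Its dimmer probe sets had log2 fold changes of -0.08 and -0.15 and were not called, and averaged over its probe sets the gene was not called either (-0.18, adjusted p = 0.0725).

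Transcripts for the abundant nucleolar proteins missed the threshold. Ncl, nucleolin, which binds the precursor RNA, had 6726, 6741 and 6985 on PD0332991 arrays and 7228, 7525 and 7495 on vehicle arrays (log2 fold change -0.12, limma adjusted p = 0.0739). All 5 of its probe sets had negative values, from -0.33 to -0.12, and 1 was called lower on its own. Npm1, nucleophosmin, a histone and ribosome chaperone, had a log2 fold change of -0.04 (95% interval -0.12 to 0.04). Mybbp1a, a nucleolar transcription regulator, had -0.12, Gnl3, nucleostemin, -0.08, the pseudouridine synthase gene Pus7 -0.07 and the RNA helicase gene Ddx21 0.00 (95% interval -0.11 to 0.10). In all, 7 of the 35 members had an adjusted p between 0.05 and 0.1, and 6 of these had negative log2 fold changes.

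Several members are measured by more than 1 probe set, which gives a second reading from the same arrays. In 17 of 23 such members all probe sets had the same sign, and of the 72 probe sets 18 were called lower and 2 higher when each was tested on its own, where 9.7% and 7.87% of 34945 probe sets were. All 3 probe sets of Dkc1, both of Fbl and both of Nop56 were called lower. The 2 higher ones were dimmer probe sets of Nop16 (66.1 on PD0332991 arrays and 38.9 on vehicle arrays, log2 fold change 0.58) and Nip7 (193.2 on PD0332991 arrays and 145.6 on vehicle arrays, 0.37). Ebna1bp2 and Wdr12 each had a probe set with a mean under 30 on both groups' arrays and a positive value that was not called.

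**Figure D3:**
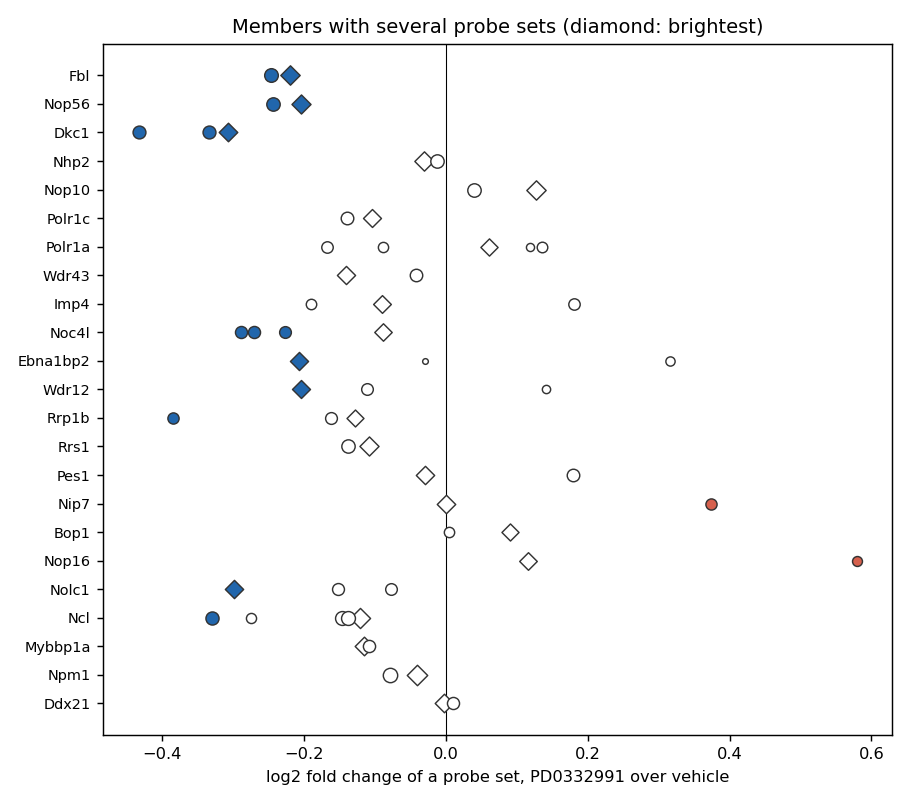
Log2 fold change, PD0332991 over vehicle (horizontal axis), of each probe set of the 23 members with several, with the brightest as a diamond, larger symbols for brighter probe sets, blue for called lower, orange for called higher and white for not called. All 3 probe sets of Dkc1 are blue, and the 2 orange points belong to Nop16 and Nip7.

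The promoters of the 4 members with the smallest p are shown because these genes fell together. They are the 250 bases before the start of each gene from RefSeq (GRCm38.p6), written 5′ to 3′ on the gene's strand. The capitals mark 3 short motifs, searched on both strands: the E-box CACGTG, which MYC and related factors bind, the ETS core CGGAAG, and an E2F core TTTNNCGC. E2F factors are released by CDK4 and CDK6 activity.
Gar1, chr3:129831397-129831646, minus strand: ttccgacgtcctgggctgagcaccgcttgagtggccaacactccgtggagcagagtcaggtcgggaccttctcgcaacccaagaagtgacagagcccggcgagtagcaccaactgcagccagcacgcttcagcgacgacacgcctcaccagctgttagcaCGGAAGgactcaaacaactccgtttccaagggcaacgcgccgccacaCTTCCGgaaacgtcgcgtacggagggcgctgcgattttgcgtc
Dkc1, chrX:75095604-75095853, plus strand: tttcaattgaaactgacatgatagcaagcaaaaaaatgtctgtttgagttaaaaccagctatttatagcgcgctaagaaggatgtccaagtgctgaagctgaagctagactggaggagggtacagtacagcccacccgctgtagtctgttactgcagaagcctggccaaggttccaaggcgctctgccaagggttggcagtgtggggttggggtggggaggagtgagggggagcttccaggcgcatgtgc
Nop58, chr1:59684756-59685005, plus strand: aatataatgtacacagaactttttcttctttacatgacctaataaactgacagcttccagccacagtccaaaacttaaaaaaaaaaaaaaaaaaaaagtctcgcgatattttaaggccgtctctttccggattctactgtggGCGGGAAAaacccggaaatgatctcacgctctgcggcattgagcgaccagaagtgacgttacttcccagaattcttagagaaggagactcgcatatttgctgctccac
Nolc1, chr19:46075597-46075846, plus strand: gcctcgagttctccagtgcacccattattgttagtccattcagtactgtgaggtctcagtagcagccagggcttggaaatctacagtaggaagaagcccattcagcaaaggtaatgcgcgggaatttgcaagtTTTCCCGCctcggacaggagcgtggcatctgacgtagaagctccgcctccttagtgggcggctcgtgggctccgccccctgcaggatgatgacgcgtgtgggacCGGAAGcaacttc
The Gar1 promoter holds 2 ETS cores, that of Nolc1 1 ETS core and 1 E2F core, that of Nop58 1 E2F core, and that of Dkc1 none of the 3.

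The search was made in 300 bases, 250 before and 50 after the start, and RefSeq gave such a window for 30 of the 35 members, 8 of them called lower. An E-box was in 7 of the 30 (23.3%), against 8.09% of all 27025 genes with such a window and 10.5% of 13268 protein-coding genes on the array. Of these 7, Utp20 was called lower, with the E-box starting 38 bases after the start. The others were Imp4, Mybbp1a, Nop2, Pes1, Pus7 and Wdr43. An ETS core was in 15 members (50%, against 18.8% of all genes with a window and 27.9% of the protein-coding genes on the array), 5 of them called lower. An E2F core was in 4 (13.3%, against 5.93% and 8.47%): Ncl and Nop2, which were not called, and Nolc1 and Nop58, which were called lower. No matches of different motifs overlapped. A match is a run of letters and was not measured as bound.

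Some of these genes also carry small nucleolar RNA genes within their own bounds. In the RefSeq gene table, 7 of 35 members held at least 1 (20.0%), against 1.9% of 16468 protein-coding genes on the array. They were Nop58 (with Snord11 and Snord70 among 4), Nop56 (with Snord57 and Snord110 among 5), Dkc1, Ppan, Ncl (Snora75 and Snord82), Gnl3 (with Snord19 and Snord69 among 3) and Wdr43 (with Snord53 and Snord92 among 3). Of these hosts Nop58, Nop56 and Dkc1 were called lower. The strand of the nested genes was not checked, and the array reads the host transcripts only.

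The wider pathway was read from a list of 115 further ribosome biogenesis genes, of which 113 were measured. There 27 were called lower (23.9%) and 5 higher (4.42%), where 19.2% and 15.6% of the bright genes were, and the median log2 fold change was -0.06. When the arrays were centred on the spike-in probe sets, 15 were lower and none higher. Without PD0332991 replicate 1 the lower count was 15, without vehicle replicate 1 it was 17, without vehicle replicate 3 it was 16, and the higher count was 2 or 3 without any 1 array.

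The deepest falls in the pathway were in RNA decay and snoRNP assembly, where 9 of 18 genes were called lower (50%, against 19.2% of bright genes) and none higher, with a median of -0.17. Exosc8, a ring subunit of the RNA exosome, which trims ribosomal RNA precursors, had 1144, 1154 and 1180 on PD0332991 arrays, against 1977, 1986 and 1927 on vehicle arrays. That is a wide gap between groups, 1.68-fold (log2 fold change -0.75, SE 0.03, limma adjusted p = 9.23e-05), and averaged over its probe sets the value was -0.34. Dis3, a nuclease of the exosome, averaged 595.2 ± 25.2 on PD0332991 arrays and 894.9 ± 38.0 on vehicle arrays (SD, n = 3 each, log2 fold change -0.58). Ruvbl1, an ATPase that helps to assemble snoRNPs, averaged 855.7 ± 9.48 on PD0332991 arrays and 1094 ± 11.8 on vehicle arrays (SD, n = 3 each, -0.35).

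Of 47 large-subunit factors outside the 35 members, 9 were lower (19.1%, near the 19.2% of bright genes) and 3 higher. Lyar, a nucleolar protein, averaged 592.3 ± 20.8 on PD0332991 arrays and 837.8 ± 24.9 on vehicle arrays (SD, n = 3 each, log2 fold change -0.49). Las1l, which cuts an internal spacer of the precursor RNA, averaged 838.9 ± 9.34 on PD0332991 arrays and 693.7 ± 20.5 on vehicle arrays (SD, n = 3 each, 0.27). Ddx24, a helicase gene (0.23), and Sbds, which frees the large subunit for translation (0.17), were the other 2 that rose. The call of Ddx24 held without PD0332991 replicate 1 and was lost when any other array was left out (adjusted p = 0.0554 to 0.0736). It was also lost when probe sets of shared types, which can match several transcripts, were left out (log2 fold change 0.12, adjusted p = 0.309). The call of Sbds was lost without any 1 array (adjusted p = 0.0510 to 0.0753). Among 36 small-subunit factors 6 were lower (16.7%, below the share of bright genes) and none higher.

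Among 12 further genes of RNA polymerase I transcription, 3 were lower (25%) and 2 higher. Ttf1, which ends transcription of the ribosomal DNA, averaged 858.6 ± 3.03 on PD0332991 arrays and 694.2 ± 40.2 on vehicle arrays (SD, n = 3 each, log2 fold change 0.30), but its value was -0.13 when probe sets of shared types were left out, and 0.03 averaged over its probe sets. The other one that rose was Polr1d, a subunit shared with RNA polymerase III (0.15), named after its value was seen, as were the 3 that fell. These were Taf1d (-0.49), of the promoter selectivity factor, Znrd1 (-0.24), a polymerase subunit, and Ubtf (-0.26), the upstream binding factor.

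**Figure D4:**
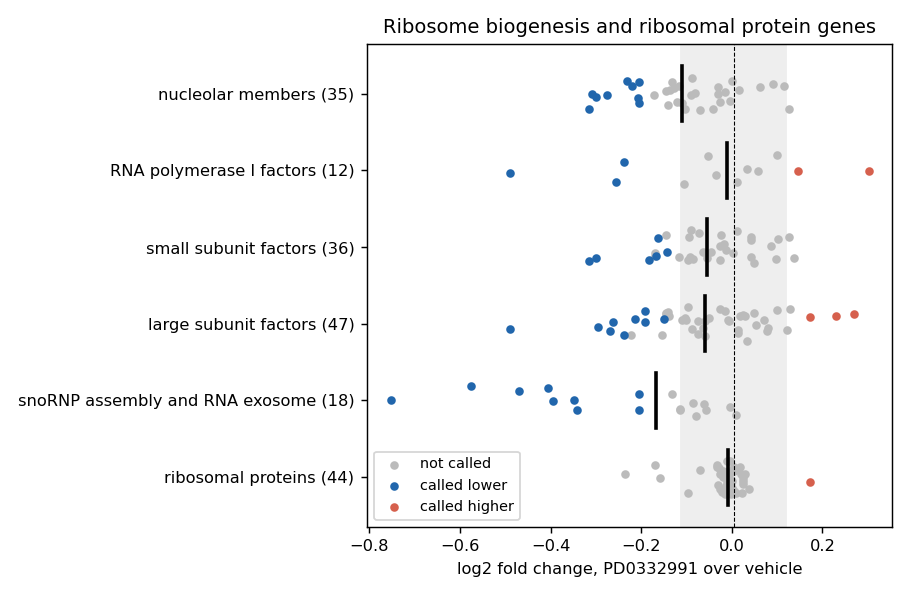
Log2 fold change, PD0332991 over vehicle (horizontal axis), of the 35 members, of the 113 further ribosome biogenesis genes by class and of 44 ribosomal protein genes, with a point per gene, black bars for medians, a dashed line for the median of all genes and a grey band for the quartiles of all genes. The class of snoRNP assembly and RNA exosome lies furthest left (median -0.17) and the ribosomal proteins cluster at -0.01.

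Transcripts for the proteins of the ribosome itself differed little in their brightest probe sets, among the genes analysed. Of 79 cytosolic ribosomal protein genes listed, 44 had a probe set of 1 symbol and 35 were not analysed here. Among the 44, none was called lower and 1 higher in limma, and without adjustment p was under 0.05 for 1 lower and 1 higher. Their median log2 fold change was -0.01 and their median absolute value 0.02, against 0.12 for the 35 members and 0.12 for all genes. The higher one, Rpl14, averaged 593.9 ± 14.2 on PD0332991 arrays and 525.4 ± 21.4 on vehicle arrays (SD, n = 3 each, log2 fold change 0.17, limma adjusted p = 0.0431), a call that held without vehicle replicate 1 and was lost when any other array was left out (adjusted p = 0.0747 to 0.123). Most of these probe sets were near the top of the measured range, up to a vehicle mean of 15734. Many ribosomal protein genes also have near-identical copies in the genome. Without probe sets of shared types, which can match several transcripts, 3 of 22 ribosomal protein genes were called higher and 1 lower. Of all 16591 genes tested there, 1399 were higher and 1647 lower. The mean of the 44 on the log2 scale was 12.60, 12.61 and 12.63 on PD0332991 arrays and 12.62, 12.64 and 12.63 on vehicle arrays, so that the groups overlapped.

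Myc, which encodes a known activator of these genes, rose. It had 1278, 1342 and 1246 on PD0332991 arrays, against 936.7, 1005 and 961.7 on vehicle arrays. All PD0332991 arrays were above all vehicle arrays (log2 fold change 0.41, SE 0.05, limma adjusted p = 0.00302). With arrays centred on spike-in probe sets the value was 0.28 and not called (adjusted p = 0.135).

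The count of members called lower varied with the levelling of the arrays and with other settings. It was 9 as reported and after median centring, and 11 after quantile normalization. With a replicate block it was 5, and with dim genes left out 17. The 9 spike-in probe sets, RNA added in fixed amounts at hybridization, averaged 10.05, 10.04 and 10.00 on PD0332991 arrays and 9.74, 10.03 and 9.94 on vehicle arrays (log2), vehicle replicate 1 being the low one. Centring on them moved the median of all genes to -0.12 and that of the members to -0.24, with all 35 members negative, so that Nop10, Nop16, Bop1, Polr1a, Nop2 and Nip7 changed sign. The count called lower became 4 (Gar1, Dkc1, Nop58 and Nolc1), although every fall was larger, and it was also 4 without vehicle replicate 1. The members' median lay 0.11 below that of all genes in either case. Centring shifts all log2 values of an array by the same amount, so it could not change this gap. After quantile normalization, which can change it, the gap was 0.09.

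**Figure D5:**
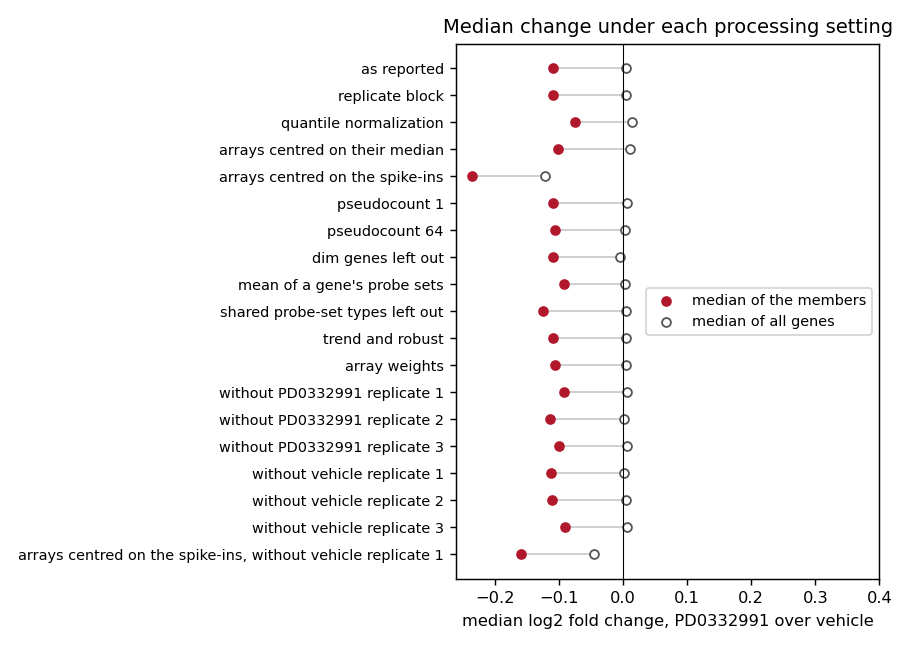
Median log2 fold change, PD0332991 over vehicle (horizontal axis), of the 35 members (red; 32 where shared probe-set types are left out) and of all genes tested (open) under each processing setting. The red point is left of the open one in every setting shown, and both move left when arrays are centred on the spike-ins. Centring, the replicate block and the trend and robust settings cannot change the distance between the points.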

How the data were processed

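Total RNA was purified, biotin-labelled and hybridized to Affymetrix arrays, per the labels' protocols. The deposited table holds 1 linear intensity per probe set and array (45101 probe sets, 6 arrays); how they were summarised and scaled is not given in the sources used here. Of these, 64 control probe sets were left out, and 34945 others had 1 gene symbol in the platform annotation. A gene was represented by its brightest probe set over the 6 arrays. The deposited intensities were transformed to log2(intensity + 16), which understates changes of dim genes, and tested two-sided with limma 3.58.1 (lmFit, eBayes; R 4.3.3), Benjamini-Hochberg adjusted over 18193 genes, tested on simulated data. Promoters and nested genes were read in Python 3.11.15 with pandas 2.3.3. Arrays have no read depth, and their number limits the precision.

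The members and lists were chosen with earlier results of these data known. Named were all members, with array values for those called or, in a class with no call, with the smallest p, and up to 4 called genes per direction of the other lists. Alternatives covered scaling, pseudocounts of 1 and 64, filters, probe sets, eBayes settings, array weights, a replicate block, an adjusted p of 0.01 and each array left out; spike-in centring without vehicle replicate 1 was chosen after seeing the data. Same-numbered samples did not deviate together (correlations of 0.01, -0.05 and 0.05), so the numbers were not taken as pairs.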

Additional observations from a re-analysis of the deposited data

How the results depend on the processing

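Of 627 values of single members under an alternative, 24 lost a call, 34 gained a call and 27 had the other sign, 26 of these in members that were not called; Gar1, Dkc1 and Nop58 were called in every alternative run on them. With the replicate number as a block, 5 members were lower (1152 lower and 895 higher over all genes, 14 lower and 3 higher in the further biogenesis genes, no ribosomal protein higher). Centred on spike-ins, 4 members were lower (240 genes higher, 15 further genes lower, 0 higher, no ribosomal protein higher) and the members' median was -0.24; without vehicle replicate 1 as well, 4 (1159 lower, 412 higher, 12 further genes lower, 0 higher, 0 ribosomal proteins higher) and -0.16. Quantile normalization gave 1 member higher and a median of -0.075. With fewer, brighter genes tested, 17 members were lower and 2 higher, 43 further genes lower and 9 higher, and 2 ribosomal proteins lower. Of the 9246 genes tested there, 2563 (27.7%) were lower and 2270 higher. With trend and robust settings 16 members were lower, 1 higher and 3 ribosomal proteins lower, while 2653 genes (14.6%) were lower and 2495 higher. A pseudocount of 64 gave 1 member higher and 1 ribosomal protein lower, and a pseudocount of 1 or median centring 0 ribosomal proteins higher. Averaged over probe sets, 2 members were higher, 3 further genes higher and 1 ribosomal protein lower, and Ebna1bp2 had 0.026 (adjusted p = 0.819). Without shared probe-set types 3 of 101 further genes were higher, and 3 of 22 ribosomal proteins were higher and 1 lower. Ttf1 had -0.13 there (adjusted p = 0.130). At an adjusted p of 0.01, 4 members, 13 further genes and 995 genes were lower, and 0, 1 and 708 higher, with 0 ribosomal proteins higher.

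Leaving out each array in turn gave 7 to 9 members lower and 0 higher, a members' median of -0.11 to -0.09, 15 to 20 further genes lower and 2 to 3 higher, 0 to 1 ribosomal proteins lower and 0 to 1 higher, and 1326 to 1494 genes lower and 1096 to 1252 higher. With 3 arrays a group, the small changes of the uncalled members could not be told from no change. The cause of these differences was not tested. A filter on dim genes tests fewer genes, and a replicate block or a left-out array leaves fewer degrees of freedom. How much either contributed was not tested.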
